A study of Mus musculus with 6106 samples.

Results

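The comparison is between the upper 2 of 3 bins of splenic regulatory T cells (Tregs), sorted by how brightly they glow with green fluorescent protein (GFP) made under the control of Nr4a1. Its members are the cells of the GFPmed and GFPhigh bins with at least 500 unique molecular identifiers (UMIs, the tags by which each captured transcript is counted once). They were chosen by the bin named in each cell's label and by depth alone. These were 1537 GFPmed and 1775 GFPhigh cells, together 3312 of the 6106 cells deposited and of the 5435 cells of all bins that met the same minimum. The genes described are the 7810 of 23725 in the table that had at least 50 UMIs in these 2 bins together.

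All cells came from spleens of male mice aged 10 months on the B6 background that carry the alleles Nr4a1-Gfp and Foxp3-Ires-Thy1.1, so both bins carry both reporters and their labels differ only in the gate. Viable (DAPI-negative) cells positive for TCR beta, CD4 and the Thy1.1 reporter of Foxp3 were gated on GFP. GFPmed took the 40 to 60 percent range of GFP, GFPhigh the 80 to 100 percent range, and GFPlow, which is given only for reference, the 0 to 20 percent range. No treatment is labelled. Each bin is 1 inDrops library (single cells barcoded in droplets), the number of mice behind it is not given, and a difference between bins cannot be told apart from a difference between libraries. No test between bins was therefore made.

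Nr4a1 is an orphan nuclear receptor whose gene is switched on within hours of T cell receptor (TCR) engagement, and the GFP reporter outlasts the transcript, so GFP brightness is used as a record of recent TCR signalling. Tregs need such signals to keep up their suppressive programme. The TCR acts through calcium and NFAT, through the MAP kinases and AP-1, and through NF-kappa-B, and its early targets include the EGR and NR4A factors, IRF4 and receptors of the tumour necrosis factor (TNF) family. Cells that have not met antigen lately instead express genes of recirculating, quiescent lymphocytes.

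The promoters of 3 genes that the comparison turns on are printed to set the reporter's own gene beside a gene higher and a gene lower in GFPhigh. Each is the 250 bases before a RefSeq transcript start on the GRCm38.p6 build, plus strand, 5′ to 3′. Capitals mark matches, on either strand, to the motif letters GGAAA (the core bound by NFAT), TGANTCA (AP-1), TGACG (the core of the cyclic AMP response element) and GCGNGGGCG (EGR), and no matches of different motifs overlap in them. The windows are chr15:101266596-101266845 for Nr4a1, chr4:150919905-150920154 for the first of 2 listed starts of Tnfrsf9, and chr11:99040994-99041243 for Igfbp4. The Nr4a1 and Tnfrsf9 windows lie inside the genes' GENCODE intervals, before a start downstream of the outermost one.
Nr4a1: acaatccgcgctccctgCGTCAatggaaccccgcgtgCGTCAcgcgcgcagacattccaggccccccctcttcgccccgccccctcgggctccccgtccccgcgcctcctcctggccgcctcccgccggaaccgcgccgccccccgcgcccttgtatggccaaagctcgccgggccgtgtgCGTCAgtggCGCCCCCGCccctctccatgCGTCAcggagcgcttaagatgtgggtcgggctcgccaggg
Tnfrsf9: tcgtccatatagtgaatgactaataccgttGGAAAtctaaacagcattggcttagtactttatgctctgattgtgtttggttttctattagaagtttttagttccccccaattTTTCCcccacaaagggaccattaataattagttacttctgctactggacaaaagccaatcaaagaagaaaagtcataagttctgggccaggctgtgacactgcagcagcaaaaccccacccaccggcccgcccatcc
Igfbp4: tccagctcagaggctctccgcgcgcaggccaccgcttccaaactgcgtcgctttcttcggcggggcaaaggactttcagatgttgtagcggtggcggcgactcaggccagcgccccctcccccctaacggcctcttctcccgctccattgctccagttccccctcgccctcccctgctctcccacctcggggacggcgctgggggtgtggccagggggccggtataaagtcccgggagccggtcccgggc
The Nr4a1 window held 4 matches to TGACG, all on the minus strand (CGTCA as printed), and 1 to the EGR letters. The Tnfrsf9 window held 2 matches to GGAAA, and its other listed window, not printed, 3 to GGAAA and 1 to TGANTCA. The Igfbp4 window held none of the 4 motifs. Of 32851 RefSeq promoter windows of the same length, 55.6% held GGAAA, 6.75% TGANTCA, 17.8% TGACG and 4.70% GCGNGGGCG. A match describes letters and not a bound site. Penk, Nrn1 and Gsta4 are named only.

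The cells used held 2512277 UMIs in GFPmed and 2270376 in GFPhigh. A GFPmed cell had a median of 750 genes, against 622 in GFPhigh, and more UMIs, so shares of cells are compared only after each cell was thinned at random to 500 UMIs. At that depth the median was 336 genes per cell in GFPmed and 345 in GFPhigh. Levels, written UPM, give the number of UMIs that a gene had among 1000000 UMIs of its bin. A gene with 0 UMIs could lie at up to 1.19 UPM in GFPmed and 1.32 UPM in GFPhigh (3 counts). Log2 ratios are GFPhigh over GFPmed after adding 0.5 UMI to each count. Brackets give 95% intervals, exact conditional binomial for a ratio and exact Clopper-Pearson for a share of cells, and cover counting error only, not variation between mice or libraries. The bins shared 20 cell barcodes among the cells used, and doublets were not removed.

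The cells carried the markers of the sorted population. After thinning, a UMI of any of 10 Treg and T cell markers was found in 81.1% of GFPmed and 85.1% of GFPhigh cells, against 84.8% in GFPlow. Foxp3, the transcription factor that defines Tregs (chromosome X, 7573644 to 7595245, plus strand, mm10), was at 317 UPM in GFPmed and 359 UPM in GFPhigh, a log2 ratio of 0.18 [0.04, 0.32]. Cd4 was at 384 and 465 UPM (0.27 [0.15, 0.40]), and Thy1, whose gene product marks T cells, at 1149.55 and 971 UPM (-0.24 [-0.32, -0.16]). Foxp3 and Cd4 thus differed little, and it is not given in the sources used here if reporter messages were counted as Thy1 or Nr4a1.

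Few genes separated the bins by a wide margin, and more of them were higher in GFPhigh than lower. With no test, a gene is counted as past a fixed fold, either 2-fold or 1.5-fold. Of the 7810 genes, 1.5% were at least 2-fold higher in GFPhigh and 0.602% (47 genes) at least 2-fold lower. At least 1.5-fold higher were 7.58% (592 genes), and at least 1.5-fold lower were 3.42%. The median log2 ratio of all genes was 0.08, and 60.8% of genes were above 0. The surplus of higher genes depended on the scaling. GFPmed gave 29.3% of its UMIs to ribosomal protein genes and GFPhigh 26.01%, and with edgeR's TMM scaling the median moved by -0.08 and 49.8% of genes lay above 0. Of the genes past 2-fold 56.9% were then higher (91 against 69 lower), in place of 71.3%, and of those past 1.5-fold 50.8%, in place of 68.9%. Scaled to UMIs outside the ribosomal protein genes, 60.1% of those past 2-fold (95 against 63 lower) and 54.4% of those past 1.5-fold were higher.

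Low counts contributed much of the spread. Among the 1932 genes with 50 to under 100 UMIs, 59 were at least 2-fold higher and 26 lower. From 100 to under 200 UMIs these were 33 and 11, from 200 to under 500 they were 18 and 4, and among the 816 genes with 500 to under 1000 they were 5 and 1. Of the 632 genes with at least 1000 UMIs, Nr4a1 and Tnfrsf4 were at least 2-fold higher, and Igfbp4, Ly6c1 and the globin genes Hba-a2, Hbb-bs and Hbb-bt at least 2-fold lower. Genes are therefore ranked below only from 100 UMIs. Genes of which a single cell held over 20% of the UMIs are left out of the ranking. There were 12 of these, with Jchain (log2 ratio 6.16, 96.3% of UMIs in 1 cell) and Lyz1 (-5.61, 67.2%) the outermost.

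**Figure D1:**
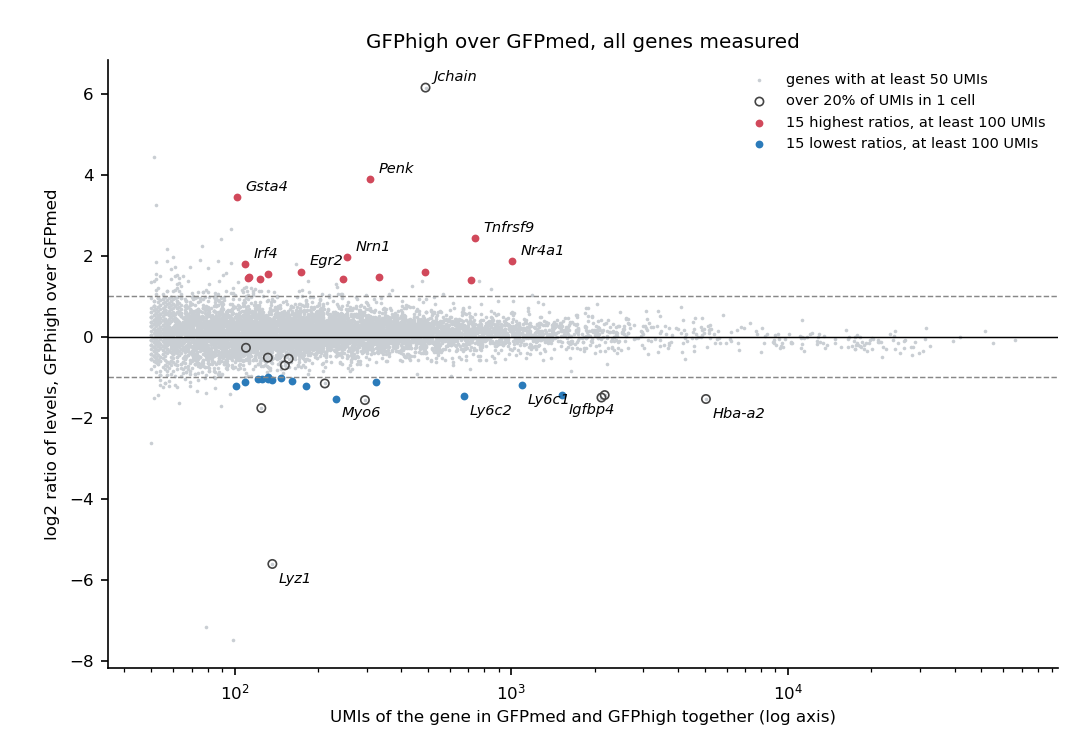
Log2 ratio of GFPhigh over GFPmed (vertical axis) against the UMIs of each gene in both bins (log axis) for all 7810 genes, with dashed lines at 2-fold. Penk, Gsta4 and Tnfrsf9 stand above the other genes with at least 100 UMIs, apart from Jchain, and open circles mark genes of which 1 cell held over 20% of the UMIs.

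Penk led the genes higher in GFPhigh. It encodes proenkephalin, the precursor of opioid peptides, and lies on chromosome 4 (4133531 to 4138819, minus strand). It was at 8.36 UPM in GFPmed and 126.85 UPM in GFPhigh, with 6.16 UPM in GFPlow, a log2 ratio of 3.89 [3.28, 4.64]. Only the top bin was high, and the lower bins lay within each other's counting error. Without the deepest 5% of cells the ratio was 4.68, and with cells that hold at least 2 UMIs of the markers of other cell types left out it was 4.86. Here and below, that bar left out many times more cells than the 29 GFPmed and 25 GFPhigh cells with at least 3 such markers. It is therefore not read as a removal of other cell types alone. The Penk UMIs came from few cells, with 22 in the richest GFPhigh cell. After thinning 3.27% of GFPhigh and 0.325% of GFPmed cells had a Penk UMI (4.39% and 0.781% without thinning).

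Gsta4, a glutathione S-transferase that clears products of lipid peroxidation (chromosome 9, 78182774 to 78209349, plus strand), was at 3.58 UPM in GFPmed and 40.96 UPM in GFPhigh. GFPlow had 0.82 UPM. The log2 ratio was 3.45 [2.53, 4.69], and 2.64 after thinning to 500 UMIs, on 102 UMIs in all before thinning. Gsto1, a glutathione transferase of the omega class, was at 51.7 and 157.7 UPM (1.60 [1.31, 1.91]). Of 24 measured genes of glutathione and redox enzymes, these were the only 2 past 1.5-fold upward. The glutamate-cysteine ligase subunits Gclc (-0.69) and Gclm (-0.66) were the 2 past it downward, and the list's median was -0.04.

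Tnfrsf9 encodes a costimulatory receptor of the TNF receptor family that activated T cells put on their surface (chromosome 4, 150914562 to 150946102, plus strand). Its level was 49.8 UPM in GFPmed and 271.3 UPM in GFPhigh, with 20.5 UPM in GFPlow. The log2 ratio was 2.44 [2.17, 2.74] and lay between 2.27 and 2.48 under 13 other settings. A Tnfrsf9 UMI was found in 2.02% of GFPmed and 9.07% of GFPhigh cells after thinning, and in 5.60% and 17.1% without it. Tnfrsf9 was thus both among the steepest genes and the least moved by the choice of cells and scaling among the first 4.

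Nrn1 encodes neuritin, a membrane-anchored protein first described in neurons (chromosome 13, 36725361 to 36735131, minus strand). It was at 22.3 UPM in GFPmed and 88.1 UPM in GFPhigh, with 14.8 UPM in GFPlow, a log2 ratio of 1.97 [1.55, 2.44]. With cells that hold at least 2 UMIs of the markers of other cell types left out the ratio was 1.38.

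Nr4a1 itself (chromosome 15, 101254269 to 101274795, plus strand) was at 92.7 UPM in GFPmed, 340.47 UPM in GFPhigh and 35.7 UPM in GFPlow. Its log2 ratio was 1.87 [1.66, 2.09]. The bins were sorted on its reporter, so this value checks the gate. Per cell its UMIs were clustered, with 54 in the richest GFPhigh cell and 29 in the richest GFPmed cell, and 8.06% of GFPhigh and 3.25% of GFPmed cells had one after thinning.

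Of the 15 genes with the highest ratios, the remaining 10 ran from 1.80 to 1.40. The transcription factor Irf4, which drives the effector programme of Tregs, was at 10.3 UPM in GFPmed and 36.6 UPM in GFPhigh (1.80 [1.17, 2.52], 1.17 after thinning to 500 UMIs). GFPlow was at 22.2 UPM, so the middle bin had the lowest Irf4 level. Egr2, an early TCR-induced zinc finger factor, was at 18.3 and 56.4 UPM (1.61 [1.13, 2.14]). Tnfsf11, the TNF family ligand RANKL, was at 12.7 and 35.7 UPM (1.47), and Gadd45b, a stress-induced gene, at 12.7 and 35.2 UPM (1.45). Cd83, a surface glycoprotein of activated lymphocytes, was at 37.8 and 104.8 UPM (1.47 [1.12, 1.83]). Lad1, which encodes the anchoring filament protein ladinin, was at 14.3 and 42.3 UPM (1.55). Tbc1d4, a GTPase-activating protein of vesicle traffic, was at 84.4 and 222.9 UPM (1.40 [1.17, 1.64]). Gsto1, the zinc finger gene Zmym3 (1.42) and the membrane protein gene Mmd (1.42) complete the 15, and Bmyc (1.38) and Lrat (1.38) came next. After thinning to 500 UMIs, Cd83 (0.90), Tbc1d4 (0.98) and Zmym3 (0.92) were short of 2-fold, with Cd83 and Tbc1d4 below their counting intervals. The rest of the 15 stayed past 2-fold at that depth. In GFPlow, Tnfsf11, Gadd45b and Zmym3 stood at 16.4, 16.8 and 17.7 UPM, no lower than in GFPmed, whereas Lad1 stood at 2.87 UPM.

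**Figure D2:**
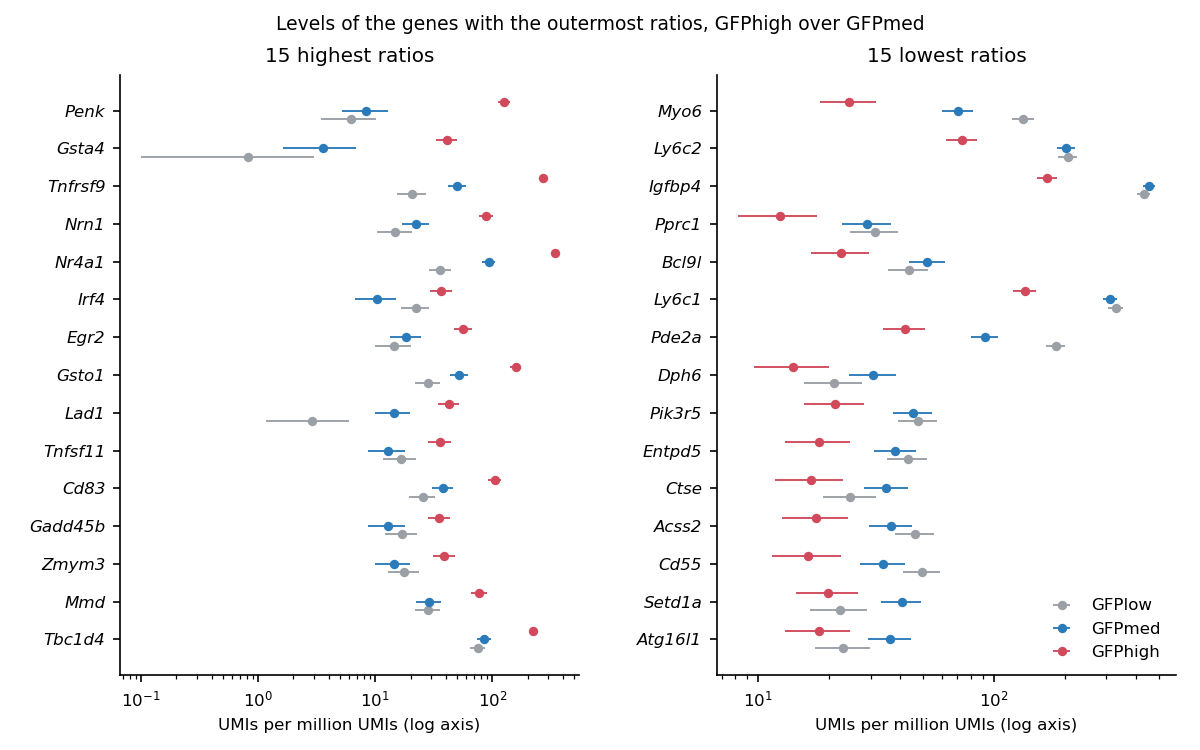
Levels in UPM (log axes) of the 15 genes highest and the 15 genes lowest by ratio, in the bins GFPlow (grey), GFPmed (blue) and GFPhigh (red), with 95% Poisson intervals. The genes were chosen for the gap between GFPhigh and GFPmed. GFPlow lies near GFPmed for Igfbp4 and Ly6c2 and above it for Myo6 and Pde2a.

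On the other side, Igfbp4 stood out by its abundance. It encodes a secreted protein that binds insulin-like growth factors (chromosome 11, 99041244 to 99054392, plus strand). It was at 456 UPM in GFPmed and 168.25 UPM in GFPhigh, with 431 UPM in GFPlow. The log2 ratio was -1.44 [-1.61, -1.27], and from -1.52 to -1.26 under the other settings. GFPmed and GFPlow lay near each other, and GFPhigh alone was low. After thinning 15.4% of GFPmed and 6.25% of GFPhigh cells had an Igfbp4 UMI.

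Ly6c2 and Ly6c1, neighbours on chromosome 15 that encode membrane-anchored Ly6 proteins, had the same shape. Ly6c2 was at 202.2 and 73.1 UPM (-1.46 [-1.73, -1.21]), with 205.7 UPM in GFPlow. Ly6c1 was at 312 and 135.7 UPM (-1.20 [-1.39, -1.01]), with 329 UPM in GFPlow. The 2 genes are near-identical, so how their reads were divided is uncertain. Ly6a, a relative of both, was at 435 and 241.8 UPM (-0.85), and at 638 UPM in GFPlow.

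Myo6, the myosin that walks toward the minus end of actin filaments, had the lowest ratio. It was at 70.5 UPM in GFPmed and 24.2 UPM in GFPhigh, with 133.01 UPM in GFPlow (-1.53 [-2.00, -1.10]). Among cells thinned to 1000 UMIs the ratio was -0.82. Pde2a, a phosphodiesterase that breaks down cyclic nucleotides, was at 91.6 and 41.8 UPM (-1.13 [-1.49, -0.78]), with 182.7 UPM in GFPlow. For both genes GFPmed lay between GFPlow and GFPhigh.

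The other lowest genes were rarer. Bcl9l, a coactivator of beta-catenin, was at 52.1 and 22.5 UPM (-1.21 [-1.71, -0.74]; -1.83 with cells that hold at least 2 UMIs of those markers left out). Pprc1, a coactivator of mitochondrial biogenesis, was at 29.1 and 12.3 UPM (-1.22). The remaining 8 lay between -1.11 and -0.99. They were Dph6 of diphthamide synthesis, Pik3r5, a regulatory subunit of phosphoinositide 3-kinase, the nucleotidase gene Entpd5, the protease gene Ctse, the acetyl-CoA synthetase gene Acss2, the complement regulator gene Cd55, the histone methyltransferase gene Setd1a and the autophagy gene Atg16l1. Of these Ctse rested on few cells, since 1 cell held 17.5% of its UMIs. Its ratio was -0.41 without cells of other types and -0.27 without any cell that holds at least 2 UMIs of their markers. After thinning to 500 UMIs, Dph6 (-0.67), Entpd5 (-0.61), Cd55 (-0.61) and Ctse (-0.54) were well short of 2-fold. At that depth Acss2 (-1.50), Pik3r5 (-1.32) and Setd1a (-1.02) were past 2-fold, and Atg16l1 was at -0.90.

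Among the 530 ranked genes with at least 1000 UMIs, the receptor Tnfrsf4 (OX40) followed Nr4a1. It was at 166.8 and 340.47 UPM (1.03 [0.86, 1.20]), with 109.6 UPM in GFPlow. Next came the RNA processing factor Cstf3 (0.89), the ciliary transport gene Ift80 (0.86), the RNA-binding protein gene Zfp36l1 (0.80), the transcription factor Gata3 (0.80), the histone gene H2afz (0.74), Serp1 of the endoplasmic reticulum (0.72), Wdr89 (0.72) and the interleukin 2 receptor chain Il2rb (0.71). At the low end, after Igfbp4, Ly6c1 and Ly6a, stood Crip1 (-0.68), the small GTPase gene Arl4c (-0.58), Rps19-ps3 (-0.55), the actin crosslinker Actn1 (-0.53), Tagln2 (-0.52), the lipid transfer gene Pitpnc1 (-0.52) and Gltscr2 (-0.44). Rps19-ps3 is a pseudogene of Rps19, so its reads may belong to the parent gene. Of these abundant ranked genes, only Nr4a1, Tnfrsf4, Igfbp4 and Ly6c1 were past 2-fold. Nr4a1, Igfbp4 and Ly6c1 were also among the 15 highest or 15 lowest from 100 UMIs. Rarer genes have wider counting error, so the outermost ratios of rare and abundant genes are not compared.

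Genes were also grouped by role. For each list the members with at least 50 UMIs in both bins together were counted. These counts are read beside the 7.58% of all genes at least 1.5-fold higher, the 3.42% at least 1.5-fold lower and the all-gene median of 0.08. Counts of members merely higher are read beside the 60.8% of all genes above 0, which was 49.8% under TMM scaling. A count near that share is not a result about the list.

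The transcription factors of the early TCR response were higher throughout, as far as they could be measured. Of 6 NR4A and EGR genes, Nr4a1, Egr2 and Egr1 were measured. Egr1 was at 46.6 UPM in GFPmed and 89.4 UPM in GFPhigh (0.94 [0.61, 1.28]), a smaller ratio than those of Nr4a1 and Egr2. Of 21 effector and co-operating factors, 18 were measured, all 18 were above 0 and 10 were at least 1.5-fold higher, with a median of 0.62. Under TMM scaling 7 were past 1.5-fold and the median was 0.54. After Irf4 the largest was Bhlhe40, a repressor induced by TCR signals, at 14.7 and 34.4 UPM (1.21 [0.64, 1.83]). Without the deepest 5% of cells its ratio was 1.91. Gata3 was at 200.6 and 349 UPM, with 283 UPM in GFPlow, and the repressor Id2 at 36.2 and 63.4 UPM (0.81), with 94.4 UPM in GFPlow. Both were lowest in the middle bin. Ikzf4 (0.76) and Ikzf2 (0.64), which encode the Foxp3 partners Eos and Helios, were also past 1.5-fold. Foxp3 had the smallest ratio of the 18. Of 7 AP-1 subunits only Jund (0.50) and Junb (0.25) were measured, and neither passed 1.5-fold.

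Receptors that tune TCR signals were mostly higher. Of 13 measured genes of the TNF receptor family and its ligands, 10 were higher, with Tnfrsf9, Tnfsf11, Tnfrsf4 and Tnfrsf1b (0.70) past 1.5-fold and none past it downward (median 0.30). Of 15 measured costimulatory and coinhibitory receptors 13 were higher and 5 past 1.5-fold (median 0.44). Lag3, an inhibitory receptor, had the highest ratio (1.71) but only 80 UMIs. After Cd83 came Cd200, a ligand that restrains myeloid cells, at 28.7 and 70.5 UPM (1.29 [0.89, 1.72], 0.78 after thinning to 500 UMIs). Pdcd1, the inhibitory receptor PD-1, was at 23.1 and 51.5 UPM (1.15 [0.69, 1.64]), with 11.1 UPM in GFPlow. Ctla4, the inhibitory receptor through which Tregs strip costimulatory ligands, was at 91.9 and 142.7 UPM (0.63 [0.39, 0.88]). Receptors that stimulate and receptors that inhibit T cells were both found among the higher genes.

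Intracellular brakes and NF-kappa-B genes showed a partial shift. Of 26 measured feedback inhibitors, 19 were higher, 5 were past 1.5-fold upward and 0 downward (median 0.33). Rgs16, which limits G protein signals, had 87 UMIs and a ratio of 1.87. The phosphatase gene Dusp1 was at 15.5 and 32.2 UPM (1.04). Also higher were Nfkbiz (1.01) and Nfkbid (0.72), which are named after the family of NF-kappa-B inhibitors. Whether these 2 act as brakes here was not tested. The TCR phosphatase gene Ubash3b was higher too (0.80, and 1.44 after thinning to 500 UMIs). Socs3, a brake on cytokine signals, was among the 7 lower members. Of 14 measured NF-kappa-B subunits and targets, 11 were higher and 6 past 1.5-fold (median 0.55), 4 of them past it under TMM scaling. Gadd45b led them, followed by the survival genes Bcl2a1d, at 48.96 and 109.7 UPM (1.16), and Bcl2a1b (0.97). These belong to a family of near-identical copies, so their division is uncertain. The subunit gene Nfkb2 stood at 0.68.

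The TCR machinery itself and the interleukin 2 pathway differed less. Of 19 measured genes of the TCR complex and its proximal kinases, 15 were higher and 4 lower, with a median of 0.16. Cd247, the zeta chain, was at 278.2 and 382.8 UPM (0.46), and the kinase gene Zap70 at 112.6 and 153.3 UPM (0.44). Prkcq, the kinase that links the TCR to NF-kappa-B, was at 191.1 and 127.7 UPM (-0.58 [-0.80, -0.37]), against the direction of most of the list. Of 15 genes of the interleukin 2 receptor and STAT5, 11 were higher and 3 past 1.5-fold (median 0.18). Il2rb was at 303.3 and 496 UPM, the kinase gene Jak3 at 19.9 and 30.4 UPM (0.61) and the high-affinity chain Il2ra at 380.1 and 510.05 UPM (0.42 [0.30, 0.55]). The beta chain thus differed more than the alpha chain. Under TMM scaling 1 of the 15 was past 1.5-fold.

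Genes of a Treg signature were mostly higher, and those of suppressive molecules less clearly so. Of 19 measured genes of a Treg signature, 18 were higher and 9 past 1.5-fold, with a median of 0.55. Under TMM scaling these were 6 and the median was 0.47. Besides Tnfrsf4, the tetraspanin Cd81 was at 72.05 and 137.4 UPM (0.93). The orphan receptor gene Gpr83 was at 51.7 and 91.6 UPM (0.82), with 17.7 UPM in GFPlow. Swap70, a regulator of the cytoskeleton, stood at 0.85. Of 10 measured suppressive molecules 9 were higher, 4 past 1.5-fold upward and 1 downward (median 0.39), with 2 upward under TMM scaling. The median was 0.15 with equal weight per cell and 0.07 after thinning to 500 UMIs, below the 0.09 of all genes there, but 0.56 after thinning to 1000 UMIs. Penk, which is on this list, led it. Lrrc32, which presents latent TGF-beta on the Treg surface, was at 81.997 and 126.4 UPM (0.62). Entpd1, the ectoenzyme CD39, was the 1 past it downward, at 20.3 and 11.9 UPM (-0.76 [-1.50, -0.07]).

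The list of resting and central Treg genes split. Of its 31 members, all measured, 19 were lower and 12 higher, with 7 at least 1.5-fold lower, 1 at least 1.5-fold higher and a median of -0.12. The 7 were Ly6c2, Igfbp4, Ly6c1, Ly6a, Cd55 (33.8 and 16.3 UPM), Dapl1 and Rasgrp2. Several of the best-known genes of central Tregs were close to level. Ccr7, the chemokine receptor for lymphoid zones, was at 259.9 and 260.3 UPM (0.00 [-0.16, 0.16]). The factors Tcf7 (0.03) and Lef1 (0.02) were level within counting error too. Klf2, the factor that maintains recirculation, was at 574 and 459 UPM (-0.32 [-0.44, -0.20]). Bach2, a repressor of effector genes, was at 114.2 and 170.5 UPM (0.58 [0.35, 0.80]), higher in GFPhigh. Ccr7, Tcf7, Lef1, Klf2 and Bach2 were chosen for naming after their values were seen.

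Effector and tissue Treg genes were not raised as a group. Of 22 measured, 13 were lower and 9 higher, with 4 past 1.5-fold downward, 3 upward and a median of -0.10. S100a4 and S100a6, which encode calcium-binding proteins abundant in migratory effector T cells, were at 49.8 and 25.99 UPM (-0.93) and at 123.4 and 65.2 UPM (-0.92). GFPlow held far more of both, at 274.2 and 391 UPM. Crip1 was at 566 and 353.7 UPM, with 716 UPM in GFPlow, and the interleukin 18 receptor gene Il18r1 at 30.6 and 18.5 UPM (-0.72), with 62.4 UPM in GFPlow. Tnfrsf1b, the TNF receptor that supports Treg expansion, was on the higher side at 107.9 and 175.3 UPM. Of 10 measured chemokine and sphingosine receptors 4 were past 1.5-fold upward, among them Cxcr5 (0.64) and Cxcr4 (0.63), and 2 were under TMM scaling. After thinning to 500 UMIs Cxcr4 was at 0.27 and Cxcr5 at 0.93. With cells that hold at least 2 UMIs of the markers of other cell types left out, Cxcr5 was at 0.36. The list's median was 0.04, and below 0 under TMM scaling and when scaled without ribosomal protein genes.

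**Figure D3:**
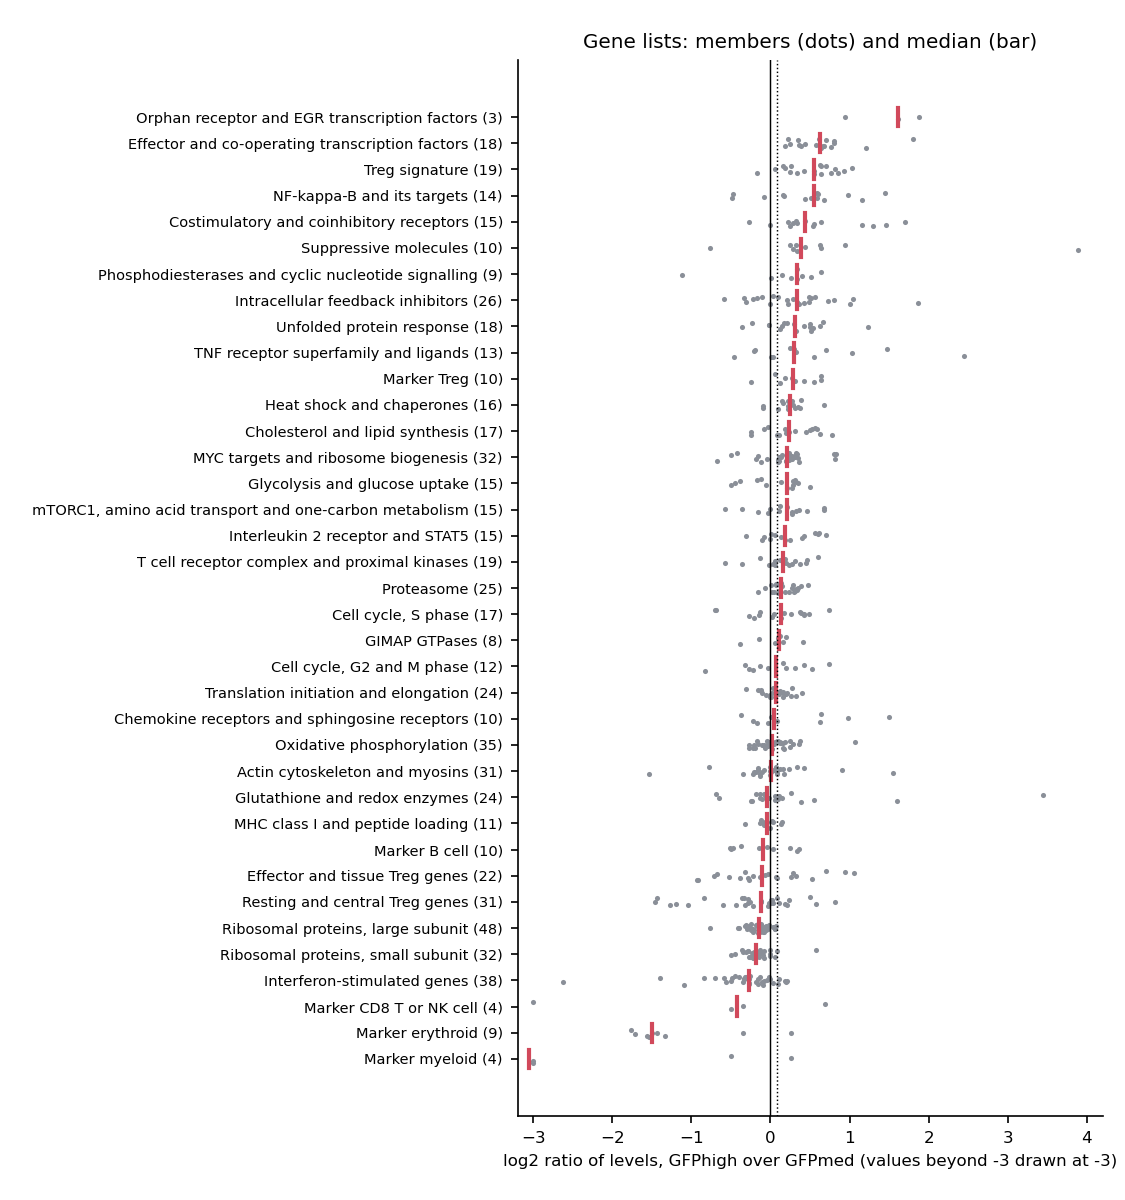
Log2 ratios of the measured members of each gene list (dots, number in brackets) with the list's median (bar), against 0 (solid line) and the median of all 7810 genes (dotted line). The 3 measured NR4A and EGR genes, among them Nr4a1, on whose reporter the bins were sorted, have a median of 1.61. The interferon-stimulated genes have one of -0.28, while most metabolic lists lie near the dotted line.

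Growth and metabolism lists lay close to the background. Of 32 genes of MYC targets and ribosome biogenesis 25 were higher, 3 past 1.5-fold (median 0.21). These were the mitochondrial chaperone gene Hspd1, at 94.3 and 167.4 UPM (0.83), the polyamine enzyme gene Odc1 (0.82) and Cad of pyrimidine synthesis (0.80). After thinning to 500 UMIs the 3 were at 0.35, 0.55 and 0.34, all short of 1.5-fold. Mybbp1a was at -0.67. Among 15 measured genes of mTORC1 and amino acid supply, Slc7a5, a transporter of large neutral amino acids, and Psat1 of serine synthesis (both 0.67) passed 1.5-fold. Among 17 of cholesterol and lipid synthesis these were Scd2 (0.78, 0.15 after thinning to 500 UMIs) and Hmgcs1 (0.62, 0.37 after that thinning). Under TMM scaling 1 gene of that list was past 1.5-fold. None of 15 glycolysis genes (median 0.21) and none of 24 translation factors (0.07) passed 1.5-fold. Of 35 oxidative phosphorylation genes only Chchd10, a mitochondrial protein of the cristae, did, at 78.02 and 163.4 UPM (1.06 [0.81, 1.32]). That list's median was 0.02 and, like the median of the translation factors, it was below 0 under both other scalings.

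Protein folding genes were slightly higher. Of 18 measured genes of the unfolded protein response 14 were higher and 3 past 1.5-fold (median 0.31). Sdf2l1, a factor of the endoplasmic reticulum, was at 13.9 and 33.03 UPM (1.23). The factor Xbp1 was at 60.1 and 95.6 UPM (0.67) and the folding enzyme gene Pdia4 at 51.7 and 80.2 UPM (0.63). Under TMM scaling 1 of the 3 was past 1.5-fold. Of 16 heat shock and chaperone genes 14 were higher, with Cct8 of the chaperonin ring (0.67) past 1.5-fold, and of 25 proteasome subunits 23 were higher and none was past it (median 0.14). The proteasome median lay close to the 0.08 of all genes, and that of the chaperones, at 0.24, somewhat above it.

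Most ribosomal protein genes were lower, by small amounts. Of 48 genes of the large subunit 41 were lower, with a median of -0.14, and of 32 of the small subunit 29 were lower, with a median of -0.19. Rpl12 was at 7076 UPM in GFPmed and 5312 UPM in GFPhigh (-0.41 [-0.45, -0.38]), with 5918 UPM in GFPlow. Rps27 was at 6722 and 4930 UPM (-0.45 [-0.48, -0.41]), with 5688 UPM in GFPlow. For both, GFPmed was the high bin, and GFPlow lay nearer to GFPhigh. Of the 7 large-subunit and 3 small-subunit genes above 0, Rps27l was highest, at 0.58, and the others were under 0.09. Rpl36al, with few UMIs, was the 1 past 1.5-fold downward, at 21.9 and 12.8 UPM (-0.77 [-1.48, -0.10]).

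Interferon-stimulated genes were lower in GFPhigh. Of 38 measured, 32 were lower and 6 higher, with 5 at least 1.5-fold lower, 0 higher and a median of -0.28. Under TMM scaling 7 were at least 1.5-fold lower. Besides Ly6a, which is on this list too, the immunity-related GTPase gene Iigp1 was at 157.6 and 96.9 UPM (-0.70 [-0.95, -0.46]). Just short of 1.5-fold, the factor Irf1 was at 189.1 and 127.7 UPM (-0.56), and the GTPase gene Irgm1 at 142.5 and 95.1 UPM (-0.58). The other 3 past 1.5-fold, Ifitm3, Rsad2 and Ifit3, had under 100 UMIs, and in Ifitm3 and Rsad2 a single cell held 34% and 32.9% of them. The canonical member Isg15 (-0.16) stood closer to 0. Of 11 MHC class I genes none passed 1.5-fold, with H2-K1 at 4872 and 5381 UPM (0.14) and the list's median at -0.05. Of 8 GIMAP genes, GTPases of lymphocyte survival, none passed it either.

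Cell cycle genes were near level as reported, but their medians depended on which cells entered. Of 17 measured S phase genes 11 were higher (median 0.13), and of 12 of the G2 and M phases 6 were (0.07, and below 0 under TMM scaling). Without cells that hold at least 2 UMIs of other-type markers the medians of the same genes were 0.63 and 0.61, past 1.5-fold upward. Without the deepest 5% of cells they were 0.23 and 0.69, and after thinning to 500 UMIs 0.23 and 0.35. H2afz was at 650.0 and 1089 UPM (0.74 [0.65, 0.84]), and the centromere histone Cenpa at 46.6 and 77.96 UPM (0.74). The ribonucleotide reductase gene Rrm1 (-0.69) and the topoisomerase gene Top2a (-0.83) were lower, but the sign of Top2a turned under 4 of the other settings, to 1.09 after thinning to 500 UMIs. The actin and myosin list had a median of 0.00 over 31 genes, with Lad1 and Marcksl1 (0.90) past 1.5-fold upward and Myo6 and Myo1f (-0.77) downward. It was below 0 under both other scalings. Of 9 measured phosphodiesterases and cyclic nucleotide genes, Pde2a was the only 1 below 0, while Crem, a cyclic AMP response factor, was at 17.5 and 27.3 UPM (0.64, 1.23 after thinning to 500 UMIs).

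UMIs of 17 early TCR response genes were summed in each cell after thinning to 500 UMIs. These were Nr4a2, Nr4a3, Egr1, Egr2, Egr3, Tnfrsf9, Tnfrsf4, Cd83, Nfkbid, Myc, Irf4, Batf, Rel, Bcl3, Traf1, Pdcd1 and Penk. Several of them lead the ranking, so a higher GFPhigh share was partly fixed by the choice. Any such UMI was found in 25.7% of GFPmed cells [23.5, 27.96] and 37.5% of GFPhigh cells [35.3, 39.8], against 21.1% in GFPlow. Exactly 1 was found in 18.3% of GFPmed and 21.5% of GFPhigh cells, 2 in 4.23% and 7.72%, and 3 or more in 3.19% [2.37, 4.19] and 8.34% [7.09, 9.72]. The ratio of the bins was thus larger at higher numbers of UMIs, which a higher mean per cell can give by itself. The means were 0.386 UMIs per GFPmed and 0.738 per GFPhigh cell. Of the NR4A and EGR genes, 2 had 0 UMIs in both bins. For reference, 46 cells of other types in the same bins were used, whose choice is given with the free RNA values. Of these, 26.1% [14.3, 41.1] held exactly 1 and none held more, which allows up to 7.71%. The shares with any are therefore not read as shares of cells that express these genes: that of GFPmed was not above the other-type share, and that of GFPhigh was inside its interval. The GFPhigh share with 3 or more lay above the limit that 0 of 46 allows, but its interval reached below that limit. The GFPmed share lay below it. B cells, which are among the 46, express some of the 17 genes themselves. Most GFPhigh cells showed no such UMI at this depth. Without thinning the shares with any were 48.1% and 58.1%, against 32.6% [19.5, 48.02] of the 46 cells, and among cells thinned to 1000 UMIs 39.1% and 56.6%.

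Igfbp4, Ly6c1 and Ly6c2 were picked for their low ratios, so a lower share of GFPhigh cells with their UMIs was fixed by the choice. Any was found in 29.0% of GFPmed cells [26.8, 31.4] and 12.4% of GFPhigh cells [10.9, 14.0], against 25.4% in GFPlow and 2.17% [0.06, 11.5] of the 46 cells of other types. In GFPmed 19.4% of cells held early TCR UMIs alone, 22.7% those of the 3 genes alone and 6.31% both. In GFPhigh these shares were 34.2%, 9.07% and 3.32%. About the same share of each bin, 51.6% and 53.4%, held neither. Within GFPmed, a UMI of the 3 genes was found in 24.6% [20.4, 29.1] of cells with an early TCR UMI and 30.6% [27.9, 33.3] of cells without, whose intervals overlap. Within GFPhigh the shares were 8.86% [6.81, 11.3] and 14.5% [12.5, 16.7], whose intervals do not overlap. Among cells thinned to 1000 UMIs they were 38.0% [33.6, 42.5] and 44.5% [40.9, 48.2] in GFPmed, whose intervals overlap. In GFPhigh they were 15.6% [12.8, 18.8] and 23.4% [19.6, 27.5] there, whose intervals do not. Without thinning they were 46.9% and 47.1% in GFPmed and 17.3% [15.01, 19.7] and 21.1% [18.2, 24.2] in GFPhigh. The intervals thus overlapped in both bins at full depth, where cells differ in depth. Because the settings differ, a gap between cells with and without early TCR UMIs is not claimed in either bin. At 500 UMIs per cell many transcripts are missed, so a cell without a UMI is not shown to lack the gene.

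**Figure D4:**
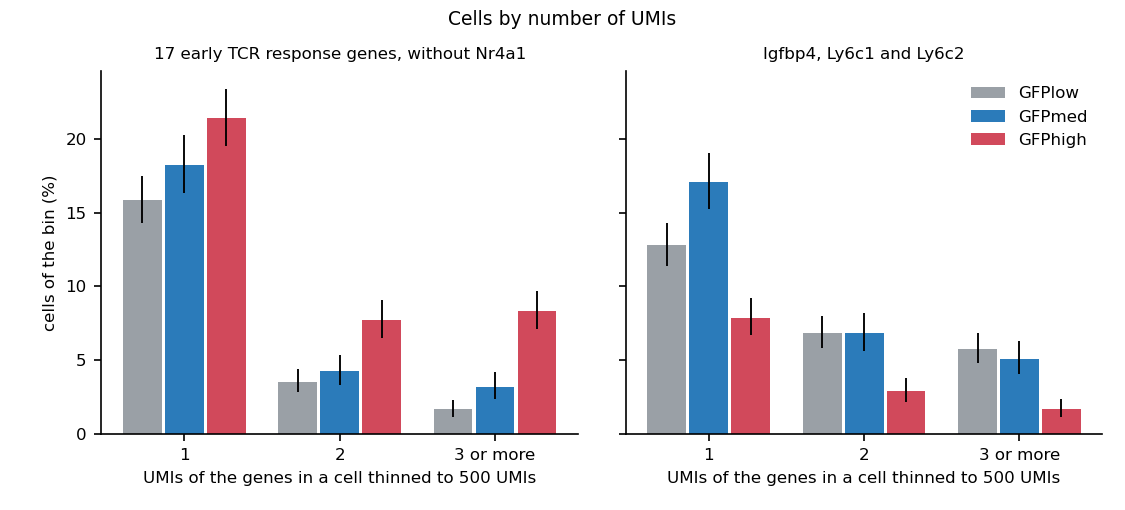
Share of cells of each bin (percent) with 1, 2 or at least 3 UMIs of the early TCR response genes (left) and of Igfbp4, Ly6c1 and Ly6c2 (right), each cell thinned to 500 UMIs, with exact binomial 95% intervals. GFPhigh is above GFPmed at every count on the left and below it at every count on the right.

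Free RNA in droplets can place UMIs in cells that do not make them. Cells of other types in the same bins serve as a reference: 46 cells with at least 3 different B cell, plasma cell, red cell, myeloid or platelet markers (globins aside) and no Cd3 UMI, with a median of 1212 UMIs against 1322 in the other 3266. None of the 46 held a UMI of Penk, Gsta4, Tnfrsf9, Nrn1, Egr2 or Igfbp4 after thinning, which allows a share of up to 7.71%. The shares of Tnfrsf9 in GFPhigh and of Igfbp4 in GFPmed were above that limit, whereas those of Penk, Gsta4, Nrn1 and Egr2 were below it in both bins. An Nr4a1 UMI was in 6.52% [1.37, 17.9] of the 46 cells, and so was a Cd83 UMI. That interval holds the shares of both genes in both bins. The B cell marker Cd74 was in 71.7% of the 46, and whether such cells make Nr4a1 or Cd83 was not tested. The 46 cells therefore cannot separate expression from free RNA for either gene, and these shares are read as neither. Another 34 cells had 2 markers and no Cd3 UMI.

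Markers of other cell types moved with the bins and touched mainly the lower genes. The erythroid list summed to 3085 UPM in GFPmed and 1109.95 UPM in GFPhigh, with 98.2% and 95.2% of its UMIs in 10 cells each. Of its 9 measured members 7 were at least 2-fold lower. The B cell list was at 429 and 419.8 UPM, the plasma cell list at 31.4 and 257.2 UPM, the myeloid list at 542 and 446 UPM, the list of CD8 T and NK cells at 240.02 and 149.8 UPM, and the platelet list at 1.59 and 0.88 UPM. Without the cells holding at least 3 B cell, plasma cell, red cell, myeloid or platelet markers, the lists stood otherwise. The plasma cell list, of whose GFPhigh UMIs 91.8% were in 10 cells, was then at 25.5 and 24.7 UPM. The B cell list was at 43.96 and 71.7 UPM and the myeloid list at 374.7 and 424.99 UPM, both higher in GFPhigh. Ctss, a member of the myeloid list, was at 292.6 and 350.2 UPM with all cells. It was spread over 32.1% of GFPmed and 30.7% of GFPhigh cells without thinning. The myeloid sum is therefore not read as a measure of myeloid cells. The list of CD8 T and NK cells was at 210.3 and 149.3 UPM, but its markers did not enter the choice of cells left out. That it stayed lower was therefore largely fixed by that choice. With all cells, 10 cells held 64.5% of its GFPmed and 26.8% of its GFPhigh UMIs. Any of its UMIs was in 9.37% of GFPmed and 10.6% of GFPhigh cells. S100a8, S100a9, Ngp and Camp of the myeloid list and Pf4, Ppbp, Gp1bb and Treml1 of the platelet list had 0 UMIs in both bins. Of conventional helper cytokine genes, only Tnf was measured, at 16.7 and 22.5 UPM, and Il2, Il13 and Il17a had 0 UMIs. Gzma, a granule protease of cytotoxic cells, had 99 UMIs in GFPmed and 0 in GFPhigh, at least 29.8-fold lower, with 22.2% of them in 1 cell.

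Of the 47 genes at least 2-fold lower, 10 were on these marker lists, and in 13 a single cell held over 20% of the UMIs. When 29 GFPmed and 25 GFPhigh cells with at least 3 such markers were left out, a choice made after seeing the data, 34 of the 47 were still past 2-fold. The signs of Alas2, Cd24a, Lyz2 and Slc4a1 were among those that turned. Of the genes at least 2-fold higher, 9 were no longer past 2-fold there and the sign of none turned. The ratios of Igfbp4 (-1.46), Ly6c2 (-1.48), Penk (3.87) and Tnfrsf9 (2.40) moved little without these cells, and the erythroid list was then at 63.7 UPM in GFPmed and 64.6 UPM in GFPhigh. The part of other cell types in the remaining lower values was not tested.

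Depth had a bearing on the count of genes past 2-fold. With every cell thinned to 500 UMIs, 79 of the genes at least 2-fold higher and 34 of the 47 at least 2-fold lower were still past 2-fold. Short of 1.5-fold were 10 and 2, and the sign of none turned. The 15 highest and 15 lowest genes kept their sign under each of the 13 other settings. All these genes were chosen for large ratios in the same cells, so keeping the sign was largely fixed by that choice.

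**Figure D5:**
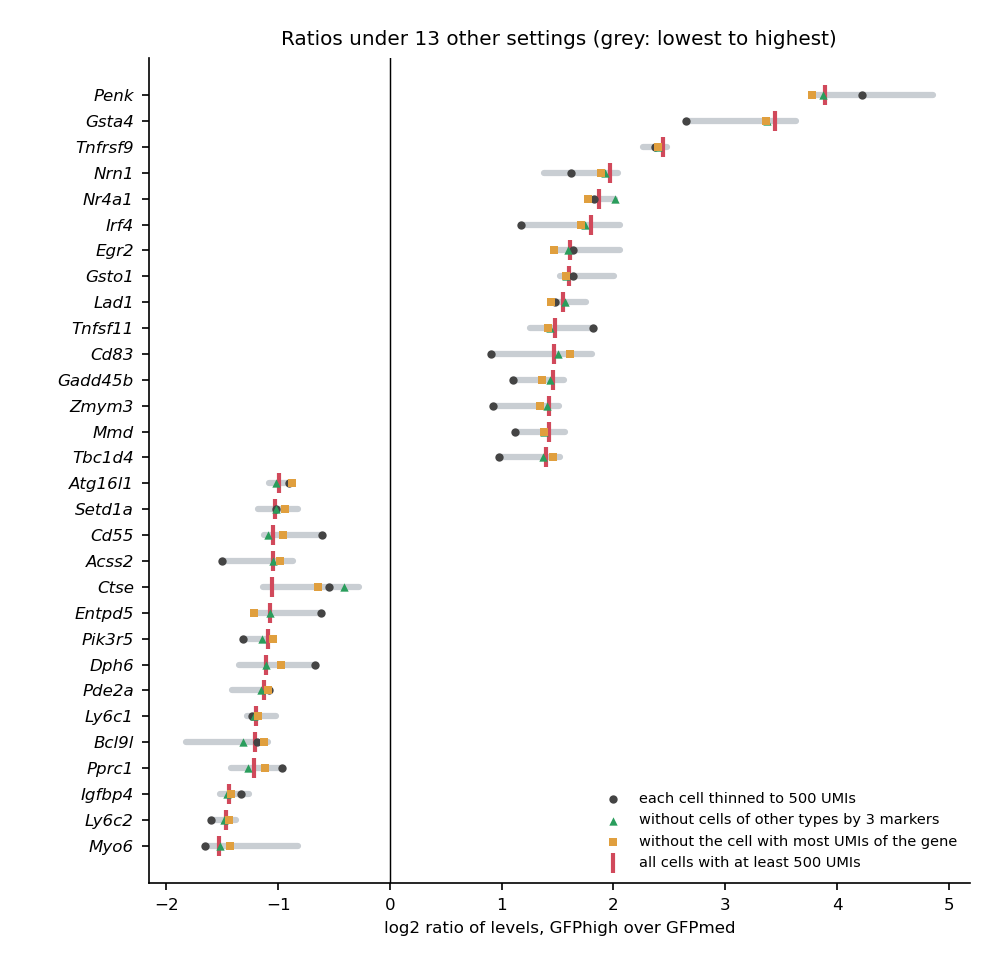
Log2 ratios of the 15 highest and 15 lowest genes as reported (bar), after thinning, without cells of other types and without the richest cell, with the range over 13 other settings in grey. No range crosses 0; Tnfrsf9 and Igfbp4 have narrow ranges, and Ctse comes nearest to 0.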

How the data were processed

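Single Tregs were captured with inDrops, and the authors deposited 1 table of UMI counts per gene and cell. Per the submitters' processing notes, the tools included SAMtools and TopHat2, and the genome build was mm10. Their versions, the annotation and the rule for counting reads that fit several genes are not given in the sources used here. The deposited counts are not normalized. Cells were assigned to bins by the label in each column name, and 0 columns were unused. Cells with under 500 UMIs were left out (145 in GFPmed, 277 in GFPhigh, 249 in GFPlow), and the median was then 1540 UMIs per GFPmed and 1129 per GFPhigh cell. No doublets were removed, and genes of the TCR constant regions were not analysed here. A few single genes are not reported here. UMIs were summed per bin, divided by the bin's total and expressed per 1000000, with 0.5 UMI added for ratios. Thinning drew UMIs without replacement with a fixed seed.

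Named were the 15 highest and 15 lowest ratios among genes with at least 100 UMIs, the 10 highest and 10 lowest with at least 1000, and for each list up to 4 members with at least 100 UMIs that lay farthest from 0. Other genes were chosen for naming after their values were seen. Genes at least 2-fold higher numbered 117, and genes at least 1.5-fold lower 267. The members and lists were chosen with earlier results of these data known. Positions are from GENCODE M21 (mm10), in which 96.2% of the symbols were found, and promoter sequences from RefSeq (GRCm38.p6).

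Scripts used Python 3.11.15, NumPy 2.4.6, SciPy 1.17.1, pandas 2.3.3 and matplotlib 3.10.9, and R 4.3.3 with edgeR 4.0.16 for TMM factors only. The ratio script was tested on simulated data. The 13 other settings changed the depth, the cells, the scaling, the added count or left out the richest cell of each gene, and other UMI minimums for genes were tried.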

Additional observations from a re-analysis of the deposited data

How the results depend on the processing

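No paired analysis was possible because each bin is 1 library and the bins share only the replicate number 1. Intervals hold counting error alone. The main limits are rare genes and depth. After thinning to 500 UMIs, which left 4726 genes, 1.46% (69) were at least 2-fold higher, 0.381% (18) at least 2-fold lower and 3.62% at least 1.5-fold lower. With a minimum of 20 UMIs per gene (9525 genes), 2.66% were at least 2-fold higher, 1.69% lower, and past 1.5-fold 9.81% and 5.91%. With a minimum of 200 (3652 genes) these were 0.685% (25), 0.274% (10), 4.49% and 1.18% (43). With cells that hold at least 2 UMIs of other-type markers left out, 0.401% (28 of 6986 genes) were at least 2-fold lower. These settings change how many UMIs or genes enter. The share of cells with an early TCR UMI was 48.1% in GFPmed and 58.1% in GFPhigh without thinning, and 39.1% and 56.6% in cells thinned to 1000 UMIs.

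Of the named genes, the sign of 11 turned under at least 1 alternative, 3 of them (Top2a, Rrm2 and Slc4a1) past 1.5-fold as reported. The other 8 were within 1.5-fold: Tnf (0.42 to -0.54), Psmc5 (0.38 to -0.27) and Srebf2 (0.56 to -0.13) after thinning to 500 UMIs, Ly6d (0.36 to -1.08) after thinning to 1000, and Cd8b1, Cst3, H2-Aa and H2-Ab1, each from below to above 0. Top2a moved from -0.83 to 1.09 after thinning to 500 UMIs, 0.24 with equal weight per cell, 0.38 with cells that hold at least 2 UMIs of other-type markers left out and 0.86 without the deepest 5% of cells. Rrm2 moved from -0.71 to 1.15 after thinning to 1000 UMIs, and to 0.71 and 0.69 under the last 2 of these settings. Without cells holding at least 3 markers of other types, a setting chosen after seeing the data, Rrm2 was at 0.56 and Slc4a1, reported at -1.76, at 1.71. Slc4a1 was at 0.10 without cells with at least 2 UMIs of such markers. The erythroid median of -1.50 became 0.10 and 0.13 with at least 2 UMIs and at least 3 markers as the bar, and the myeloid median of -3.05 (-2.53 with Lyz2 at its bound) became 0.16 with the former. For the erythroid list the cells left out held most UMIs. For the others the cause was not tested. Of the ratios of named genes, 24 moved beyond their counting interval after thinning to 500 UMIs and 0 with 1 UMI added.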

Other observations

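Some of the steepest ratios belonged to genes with 50 to under 100 UMIs, which were not ranked. These were picked after their values were seen. Myb, a transcription factor of progenitor and some effector lymphocytes, had 14 UMIs in GFPmed and 62 in GFPhigh, 5.57 and 27.3 UPM (log2 ratio 2.25). Angptl2, a secreted angiopoietin-like protein, had 5 and 47 UMIs (3.26), and Sh3gl3, an endophilin of membrane curvature, 15 and 74 (2.41). Slc22a2, an organic cation transporter, had 2 and 49 UMIs (4.45), of which 1 cell held 25.5%. Cxcl10, an interferon-induced chemokine, stood at 2.16, with 31.6% of its UMIs in 1 cell, against the direction of the interferon-stimulated list. On the lower side, Prg4, which encodes the lubricant proteoglycan lubricin, was at 28.7 and 10.6 UPM (-1.42).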
